A study of Homo sapiens with 8 samples.

Results

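DNA methyltransferases and TET dioxygenases are the enzymes that write and remove 5-methylcytosine, and their mRNA levels were compared between normoxic and hypoxic SQ20B cells, an established line derived from head and neck squamous cell carcinoma. The members were chosen by name, as 8 genes: the maintenance pair DNMT1 and UHRF1, the de novo enzymes DNMT3A and DNMT3B, the dioxygenases TET1, TET2 and TET3, and the glycosylase TDG. All 8 were found, with 14 of the 24812 listed RefSeq transcripts, among 14528 named genes. Polyadenylated RNA was sequenced from 4 normoxic replicates and from 4 replicates kept in 0.5% O2 for 16 h, without any other treatment or genetic change named for either group. The table gives a single FPKM (a fragment count scaled to transcript length and to library size) per transcript and condition, pooled by the authors over the 4 replicates. No spread between replicates and no depth of single samples could therefore be set beside these values. The test statistics that the authors deposited with them were not used, no test could be run on the pooled values, and "higher" and "lower" describe those values alone.

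Methylation of cytosine at CpG sites is copied at each round of DNA replication. UHRF1 recognises the hemimethylated CpG behind the fork and recruits DNMT1, which methylates the daughter strand. DNMT3A and DNMT3B place new marks on unmethylated CpG sites. TET enzymes run the opposite way. They use molecular oxygen, Fe(II) and 2-oxoglutarate to oxidise 5-methylcytosine, and TDG excises the most oxidised forms so that base excision repair can put back an unmodified cytosine. Because oxygen is a substrate of the TET reaction, this family has been studied widely in hypoxic tumours.

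Start sites of these genes were examined first, for the letters of the hypoxia response core, to which HIF factors are known to bind. RefSeq start-site windows from the GRCh38.p14 table, each 250 bases before and 50 bases from an annotated start, numbered 19 for the 8 members, and each of them matched GRCh37 (hg19, the build of the expression table) at exactly 1 place. The core (ACGTG or GCGTG, either strand) was present in 11 of the 19 windows against 48.4% of all 35116 windows in the table. The palindromic E-box CACGTG, which contains ACGTG and so overlaps the core on both strands, was found in 5 of the 19 windows, belonging to DNMT3A, TET2, TET3 and TDG, against 7.26% of all windows. Windows of the same gene can overlap, as those with the E-box in DNMT3A do. The 4 stretches below are shown because they carry the same 6 letters, in capitals, ahead of 3 genes with a higher and 1 gene with a lower FPKM in hypoxia. They run 5′ to 3′ on the strand of the gene, with GRCh37 coordinates.
TET2 (chr4:106066952-106067031, plus strand): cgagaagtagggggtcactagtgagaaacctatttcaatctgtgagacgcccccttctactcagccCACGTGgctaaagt
TET3 (chr2:74211953-74212032, plus strand): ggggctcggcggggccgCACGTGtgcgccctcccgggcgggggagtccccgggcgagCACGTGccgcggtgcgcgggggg
DNMT3A (chr2:25475217-25475296, minus strand): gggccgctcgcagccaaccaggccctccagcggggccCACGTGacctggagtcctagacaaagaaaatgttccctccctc
TDG (chr12:104359533-104359612, plus strand): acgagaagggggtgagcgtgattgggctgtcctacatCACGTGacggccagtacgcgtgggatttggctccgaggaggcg

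The TET2 stretch lies directly upstream of the deposited TET2 locus, and its E-box begins 14 bases before the annotated start. That of TET3 holds the letters at 2 places, 67 and 27 bases before a start that itself lies upstream of the deposited TET3 locus. The DNMT3A stretch lies inside the gene, ahead of a start 90275 bases downstream of the 5′ end of the deposited locus. It is intronic in the 3 GENCODE transcripts that span it and overlaps no annotated DNMT3A exon. In the TDG stretch the E-box begins 80 bases before the annotated start, and the last 20 bases fall within the deposited TDG locus. DNMT3B was the only member with neither the core nor the E-box, and its only window in the table starts 17467 bases into the deposited locus. CpG dinucleotides were counted in the same windows, since CpG-rich starts are those usually kept unmethylated. Counts ranged from 3 CpGs in the DNMT3B window to 46 in windows of DNMT3A and UHRF1, with a median of 14 over all windows. The windows at the deposited 5′ ends of TET1 and TET2 were CpG-poor within this group, with 10 and 13. Another TET2 window, whose start lies 1001 bases into the deposited locus, held 35, and the other TET1 windows held 6 and 11. A match of letters is no evidence of binding, and no binding or methylation was measured here.

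In hypoxia the TET genes were listed higher, the DNMT3 genes differed in opposite directions, TDG was lower and DNMT1 was level. In bulk RNA of this kind, a difference in every cell and a difference in part of the cells cannot be told apart. Change is given as log2((hypoxia FPKM + 0.1)/(normoxia FPKM + 0.1)) of the FPKM summed over a gene's listed transcripts, and a gene was called at 1.5-fold or more provided that its FPKM averaged 0.5 or more over both conditions. All 8 members passed that limit. Of these, 2 (DNMT3A and TET1) were called higher, against 9.95% of the 12106 genes, and 1 (TDG) was called lower, against 11.2%. Their median log2 change was 0.26, beside -0.07 for all genes. Genes of low FPKM changed more often, so the background was also taken by level. Among genes with a mean FPKM from 0.5 to below 5, where the DNMT3 and TET genes lie, 16.3% were called higher and 9.1% lower. Among genes at 5 FPKM or more, where DNMT1, UHRF1 and TDG lie, 6.26% were called higher and 12.5% lower.

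**Figure D1:**
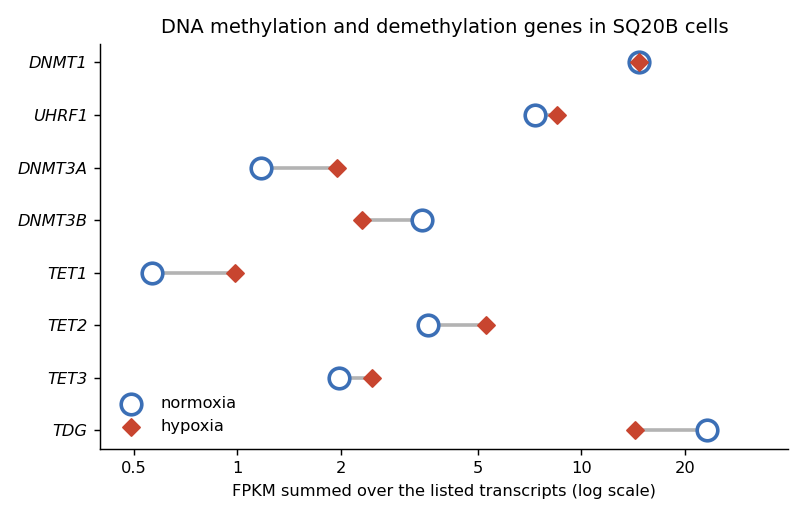
FPKM of each member, summed over its listed transcripts, in normoxia (open circles) and hypoxia (diamonds) on a log axis, 1 value pooled over 4 replicates per condition, so no error bars can be drawn. TDG and DNMT3B lie further left in hypoxia, the TET genes, DNMT3A and UHRF1 further right, and the DNMT1 symbols coincide at 14.7 FPKM.

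In normoxia TDG was the most abundant member at 23.2 FPKM, followed by DNMT1 at 14.7, UHRF1 at 7.32, TET2 at 3.59, DNMT3B at 3.44, TET3 at 1.98, DNMT3A at 1.17 and TET1 at 0.567. FPKM is scaled by transcript length, so these levels can be set beside each other. In hypoxia DNMT1 (14.7) stood ahead of TDG (14.3), and TET3 (2.46) ahead of DNMT3B (2.303). The other ranks were kept. Without replicate values it cannot be said which neighbours in this order differ, and TET2 and DNMT3B in normoxia, or DNMT1 and TDG in hypoxia, lay within 5% of each other.

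DNMT1, the maintenance methyltransferase, was the least changed member. Its FPKM was 14.719 under normoxia against 14.732 under hypoxia, a log2 change of 0.00 at percentile 56.5 of the changes of all genes. The gene lies on chromosome 19 of hg19 (10244022 to 10305755). Both listed DNMT1 transcripts were level too. NM_001379, which encodes the main somatic form, was listed at 9.39 and 9.63 FPKM, and NM_001130823, which includes an additional exon, at 5.33 and 5.10. NM_001379 made up 63.8% of the DNMT1 FPKM in normoxia and 65.4% in hypoxia.

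UHRF1, the hemimethylated-CpG reader that brings DNMT1 to replicated DNA, was higher in hypoxia, from 7.32 to 8.48 FPKM (log2 change 0.21). It lies on the same chromosome (4909510 to 4962165). Its transcripts diverged. NM_001048201 had 5.86 FPKM under normoxia against 7.45 under hypoxia (0.34), whereas NM_013282 was listed at 1.46 and 1.03 (-0.47). The share of NM_001048201 was 80.03% against 87.9%, and neither transcript reached the 1.5-fold limit. UHRF1 relative to DNMT1 was 0.497 in normoxia and 0.576 in hypoxia. A ratio within a condition does not depend on how the conditions were scaled against each other.

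The replication programme, with which DNMT1 and UHRF1 are normally expressed, was set beside them. Of 24 S phase genes in a fixed list, 23 were analysed and lay above the FPKM limit. Of these, 18 were below 0 and 5 above, where 56.4% of all genes were below 0, with a median log2 change of -0.31 beside -0.07 for all genes. These genes, other than CDT1, lie at a mean of 5 FPKM or more. At that level the median of all genes was -0.15, with 6.26% called higher and 12.5% called lower. CCNA2, cyclin A2, was lowest in hypoxia (111 to 65.8 FPKM, log2 change -0.75), with the GINS complex genes GINS3 (-0.65) and GINS2 (-0.62) next, and E2F1 (-0.61) was the other gene called lower. TYMS, thymidylate synthase, was the only S phase gene called higher (41.1 to 91.8 FPKM, 1.16), while CCNE2 (0.23) and TK1 (0.16) were the next above 0. When the FPKM columns were scaled to equal sums, the median of the S phase list was -0.09 and none of its 4 lower genes was past 1.5-fold (CCNA2 at -0.52, E2F1 at -0.39), nor was any of them after quantile normalization. After median centring CCNA2 alone of the 4 was past it. Cell cycle stage was not measured, and its part in the levels of DNMT1 and UHRF1 was not tested.

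The de novo methyltransferases moved in opposite directions. DNMT3A, on chromosome 2 (25455830 to 25565459), had 1.17 FPKM under normoxia against 1.95 under hypoxia, a difference of 0.69 on the log2 scale at percentile 92.6 of all genes. With 1 FPKM added in place of 0.1, it was 0.44 and no longer past 1.5-fold. DNMT3B, on chromosome 20 (31350191 to 31397162), was listed at 3.44 and 2.303 FPKM, a log2 change of -0.56 at percentile 12.4 and just short of 1.5-fold. DNMT3A therefore made up 25.5% of the summed FPKM of the pair in normoxia and 45.9% in hypoxia. The ratio of DNMT3A to DNMT3B was 0.341 in normoxia and 0.847 in hypoxia, a 2.48-fold difference. Their sum differed little, with 4.62 FPKM in normoxia and 4.26 in hypoxia.

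Most of the DNMT3A signal came from 1 transcript, NM_153759, which encodes the short DNMT3A2 form transcribed from a promoter within the gene. Its FPKM was 0.923 under normoxia against 1.59 under hypoxia (log2 change 0.72) and made up 78.5% and 81.3% of the DNMT3A FPKM. This is the form whose promoter lies in the internal start region shown above, although which start was used was not measured. NM_022552, which encodes the full-length enzyme, was listed at 0.0489 and 0.109 FPKM, and NM_175630, which encodes a truncated form, at 0.203 and 0.255. Both lay below the limit of 0.5 FPKM and were not counted.

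For DNMT3B, the lower sum in hypoxia came mostly from NM_175850, which had 1.89 FPKM under normoxia against 0.994 under hypoxia (log2 change -0.86, or 1.81-fold lower). NM_001207056 was listed at 1.56 and 1.31 FPKM (-0.23). Their order changed. NM_175850 made up 54.8% of the DNMT3B FPKM in normoxia and 43.2% in hypoxia. The 11.6 percentage points between these shares were the widest shift among the 5 members with more than 1 listed transcript.

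**Figure D2:**
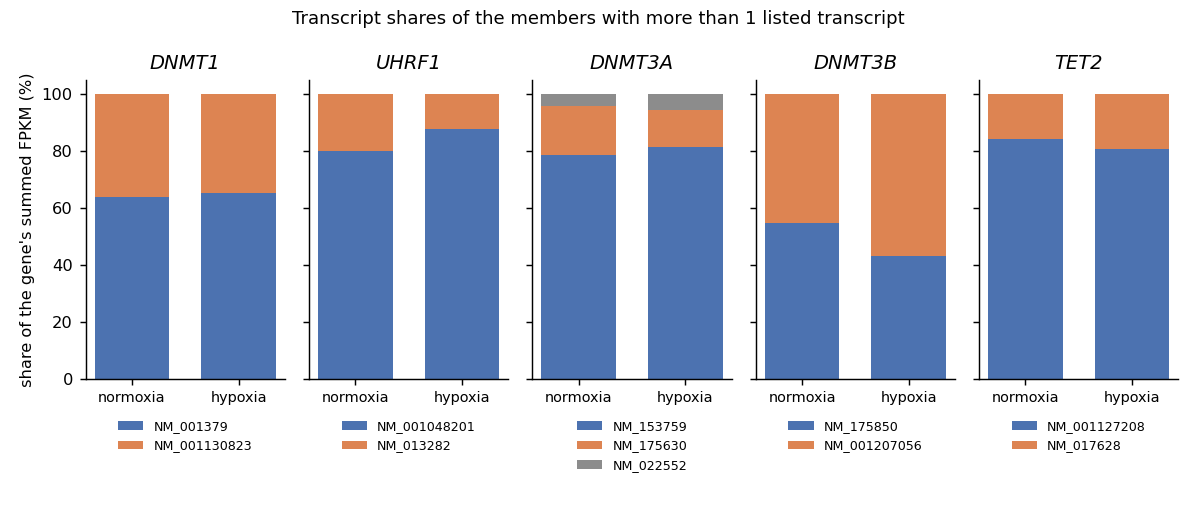
Share of each listed transcript in the summed FPKM of its gene (%), for the 5 members with more than 1 listed transcript, in normoxia and hypoxia, from 1 pooled value per condition. The DNMT3B transcripts change order, from 54.8% to 43.2% for NM_175850, whereas the DNMT1 shares stay within 1.58 percentage points.

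All 3 TET genes, the dioxygenases that start active demethylation, were higher in hypoxia. TET1, on chromosome 10 (70320117 to 70454239), was the least abundant member and had 0.567 FPKM under normoxia against 0.983 under hypoxia, a difference of 0.70 on the log2 scale at percentile 92.9. TET2, on chromosome 4 (106067032 to 106200960), was listed at 3.59 and 5.27 FPKM, a change of 0.54 at percentile 88.6. TET3, on chromosome 2 (74213531 to 74335302), was listed at 1.98 and 2.46 FPKM, a change of 0.30 at percentile 78.4. Only TET1 passed 1.5-fold, and like that of DNMT3A its call depended on the added 0.1, with 0.34 when 1 FPKM was added instead. Among genes with a mean FPKM from 0.5 to below 5, the median change was 0.09, and the changes at percentiles 5 and 95 were -0.77 and 1.02.

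The summed TET FPKM was 6.14 in normoxia and 8.72 in hypoxia. TET2 was the largest part of it in both conditions, with 58.5% and 60.5%, against 32.3% and 28.3% for TET3 and 9.23% and 11.3% for TET1. Both listed TET2 transcripts were higher. NM_001127208, which encodes the full-length protein with the catalytic domain, had 3.03 FPKM under normoxia against 4.26 under hypoxia (log2 change 0.48). NM_017628, which encodes a shorter protein that lacks the catalytic C-terminus, was listed at 0.565 and 1.01 FPKM (0.74), and its share of TET2 was 15.7% and 19.2%. TET1 and TET3 were each listed with 1 transcript, NM_030625 and NM_001287491. TET2-AS1, an antisense gene that GENCODE places within TET2, was not analysed here. The libraries were stranded, but the strand setting used in quantification is not given in the sources used here.

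TDG, the glycosylase that acts after the TET enzymes, was lower in hypoxia. Its single listed transcript, NM_003211 on chromosome 12 (104359593 to 104382656), had 23.2 FPKM under normoxia against 14.3 under hypoxia, a difference of -0.69 on the log2 scale at percentile 7.57 of all genes. Among genes at 5 FPKM or more, the median change was -0.15, and the changes at percentiles 5 and 95 were -0.82 and 0.66. TDG has a processed pseudogene, TDGP1, and whether the authors' alignment shared reads with it was not tested. The ratio of summed TET to TDG FPKM was 0.265 in normoxia and 0.609 in hypoxia, a difference of 1.20 on the log2 scale. Relative to DNMT1, the TET sum was 0.417 in normoxia and 0.592 in hypoxia, and TDG was 1.57 and 0.971. The TET sum was also 1.33 times the DNMT3 sum in normoxia and 2.05 times in hypoxia.

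**Figure D3:**
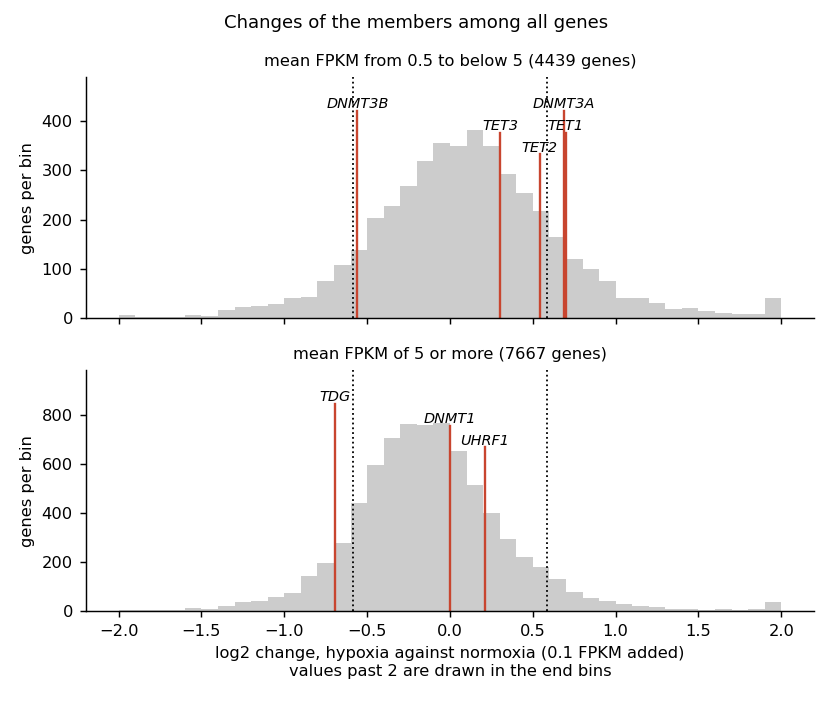
Log2 change in hypoxia of all genes with a mean FPKM from 0.5 to below 5 (upper panel) or of 5 or more (lower panel) as histograms, with the members as labelled lines and 1.5-fold as dotted lines. DNMT3A and TET1 lie beyond the upper limit and TDG beyond the lower one, while DNMT3B (-0.56) and TET2 (0.54) lie just inside.

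At the level of transcripts, 12 of the 14 lay above the FPKM limit. Of these, 3 were called higher (NM_153759 of DNMT3A, NM_030625 of TET1 and NM_017628 of TET2), against 10.5% of the 18190 transcripts above the limit, and 2 were called lower (NM_175850 of DNMT3B and NM_003211 of TDG), against 14.3%. With 1 FPKM added, only NM_003211 of these 5 was still past 1.5-fold. The median log2 change of the 12 was 0.17 beside -0.09 for all transcripts. Cufflinks divides reads between overlapping transcripts of a gene, so values of such transcripts are not independent of each other.

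The FPKM columns summed to 536005 in normoxia and 458431 in hypoxia. Scaling them to equal sums moved the median log2 change of all genes from -0.07 to 0.15, a shift about as large as the change of UHRF1, so genes with a small negative change, NM_001130823 of DNMT1 among them, turned positive. With equal sums, DNMT1 was at 0.23, UHRF1 at 0.43, TET2 at 0.76, past 1.5-fold, and TET3 at 0.52, whereas DNMT3B was at -0.34 and TDG at -0.47 and no longer past 1.5-fold. TDG was also short of 1.5-fold after quantile normalization, at -0.57. The order of the members by change, with TDG and DNMT3B lowest and DNMT3A and TET1 highest, was the same under these scalings.

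**Figure D4:**
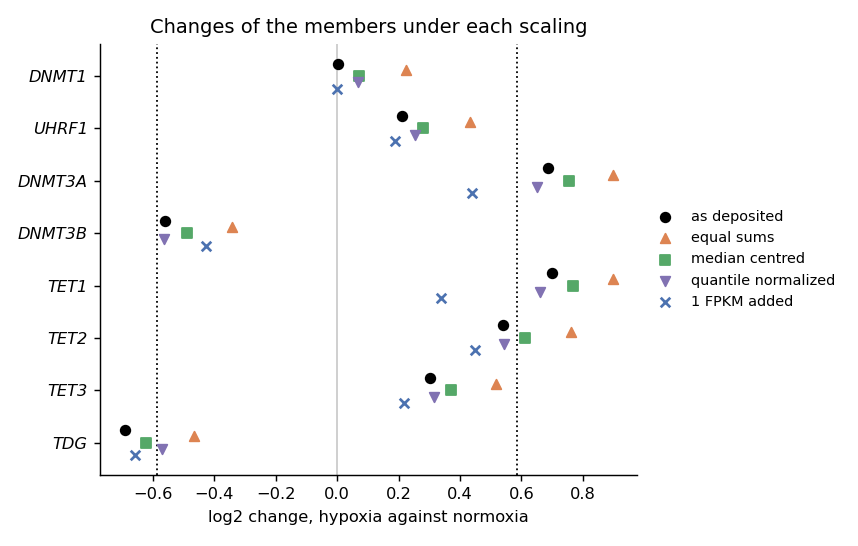
Log2 change of each member as deposited, after scaling the FPKM columns to equal sums, after centring on the median gene, after quantile normalization, and with 1 FPKM added. Dotted lines mark 1.5-fold. Every member other than DNMT1, which is at 0.00 as deposited, stays on its side of 0, and TDG moves from -0.69 to -0.47 with equal sums.

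The cofactors and partners of the maintenance machinery were described from a fixed list of 10 genes, all above the FPKM limit. Their median log2 change was -0.23, with 2 called lower and none higher. The genes called lower were ZBTB24 (11.5 to 6.28 FPKM, -0.86) and CDCA7 (66.9 to 44.2 FPKM, -0.60), and the call of CDCA7 was lost with equal sums (-0.37), median centring (-0.53) and quantile normalization. Both are mutated in ICF syndrome, a disorder of centromeric DNA hypomethylation, as are DNMT3B and the remodeller HELLS. HELLS was at 94.8 FPKM in normoxia and 92.9 in hypoxia (-0.03). PCNA, the sliding clamp to which DNMT1 binds, was at 829 and 607 FPKM (-0.45). UHRF2, the paralogue of UHRF1, was higher at 18.8 and 24.3 FPKM (0.37), and LIG1, the replicative DNA ligase, was at 0.09. With equal sums the median of the list was -0.01. Counts of called genes in this list and those below stand beside 9.95% of all genes called higher and 11.2% called lower.

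Among 7 partners of the de novo enzymes and DNMT homologues, 6 were listed and 5 were above the limit, with none past 1.5-fold and a median of -0.11, or 0.12 with equal sums. TRIM28, the corepressor of KRAB zinc finger proteins, was lowest (30.8 to 25.8 FPKM, -0.25), then TRDMT1, the tRNA methyltransferase once named DNMT2 (-0.13), and SETDB1 (-0.11). SETD2, which places the histone H3 lysine 36 mark that DNMT3B reads, was the only one above 0 (0.09). ZFP57 lay below the limit at 0.289 and 0.307 FPKM, and DNMT3L was not analysed here.

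Genes of methyl donor supply differed little between the conditions. Of the 8 analysed genes of the methionine cycle, 1 was called lower and none higher, with a median of -0.13, or 0.09 with equal sums. MTRR, which reactivates methionine synthase, was at 23.5 FPKM in normoxia and 14.1 in hypoxia (-0.73, or -0.51 and not past 1.5-fold with equal sums). MTR, methionine synthase itself, was at 7.15 and 8.57 FPKM (0.26). MAT2A, which makes S-adenosylmethionine, was at 49.7 and 45.7 FPKM (-0.12), and AHCY, which clears S-adenosylhomocysteine, at 124 and 112 (-0.15). MAT1A was not analysed here.

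Readers of methylated CpG showed no called gene among the 9 above the limit (median -0.09, or 0.14 with equal sums). MBD2 was lowest at 19.6 and 15.7 FPKM (-0.32) and MBD5 was highest at 0.708 and 0.901 (0.31). MBD6 lay below the limit.

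Base excision repair genes, which complete the removal that TDG begins, had a median of -0.19, or 0.03 with equal sums, over 11 genes above the limit, with 1 called lower and none higher. LIG3, the ligase that seals the repaired strand, was at 15.5 FPKM in normoxia and 9.55 in hypoxia (-0.69), the same log2 change as TDG to 2 decimals. Like TDG it was at -0.47 and not past 1.5-fold with equal sums. After quantile normalization LIG3 (-0.63) was past 1.5-fold and TDG (-0.57) was not. The LIG3 transcripts NM_002311 and NM_013975 were at -1.55 and -0.49. UNG, the uracil glycosylase, was at 72.1 and 55.6 (-0.37), and POLB, the gap-filling polymerase, at 38.7 and 32.3 (-0.26). XRCC1, the scaffold for LIG3, was highest at 2.28 and 2.53 FPKM (0.15), then PARP1 (0.08). SMUG1, another glycosylase of the pathway, was at -0.20 and APEX1 at -0.17. NEIL1 lay below the limit.

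Of 10 TET partners and adaptors of deamination or demethylation, 6 were analysed, with a median of 0.12, or 0.34 with equal sums. Of the 6, 2 were called higher and 1 lower, against 9.95% and 11.2% of all genes. SIN3A, a corepressor scaffold that binds TET1, was at 7.09 FPKM in normoxia and 11.6 in hypoxia (0.70). The stress-induced adaptors GADD45B and GADD45A were higher and lower, at 6.28 and 9.95 FPKM (0.66) and at 19.5 and 11.0 FPKM (-0.81). OGT, the O-GlcNAc transferase that binds TET2 and TET3, was at 53.4 and 66.9 FPKM (0.32). PROSER1, a subunit of the TET2-OGT assembly, was at 2.19 and 1.80 (-0.27).

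TET activity depends on 2-oxoglutarate and is inhibited by 2-hydroxyglutarate, and 8 genes of these metabolites were above the limit (median -0.11, or 0.11 with equal sums). IDH2, the mitochondrial NADP-dependent isocitrate dehydrogenase, was the only gene called higher, at 9.23 FPKM in normoxia and 21.4 in hypoxia (1.20). IDH3A, a subunit of the NAD-dependent enzyme, was the only gene called lower, at 71.3 and 42.5 (-0.74, but not past 1.5-fold with equal sums, at -0.52, or after quantile normalization, at -0.54), with IDH3B next at -0.32 and GLUD1 at -0.30. IDH1 was at 274 and 263 FPKM (-0.06). OGDH was at 0.23. D2HGDH and ADHFE1 lay below the limit, the latter at 0.195 and 0.583 FPKM.

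**Figure D5:**
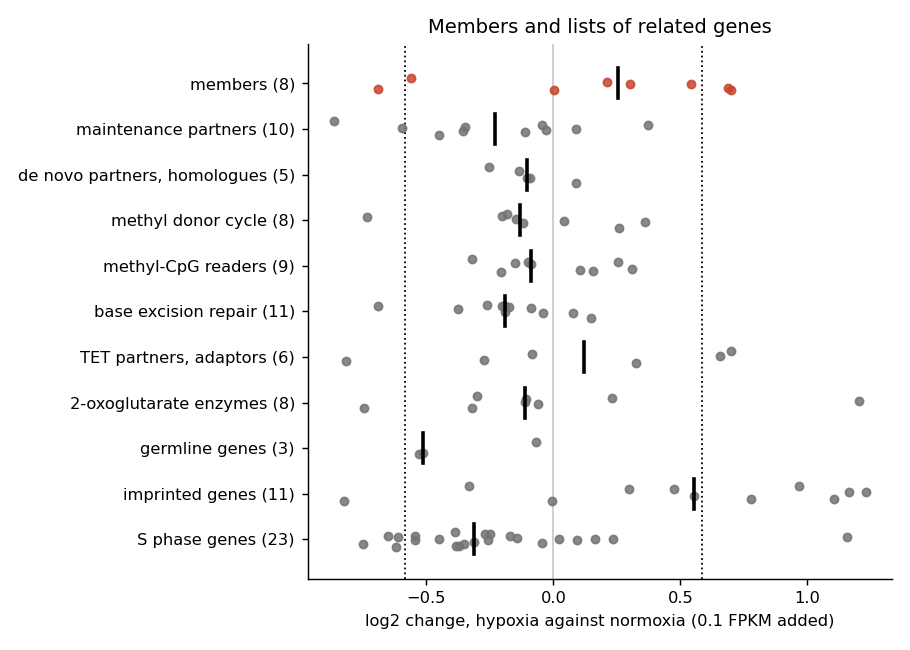
Log2 change of each gene above the FPKM limit of 0.5 in the members (top row) and in 10 lists of related genes, with the number of genes in brackets, the median of each row as a bar and 1.5-fold as dotted lines. The imprinted genes have the highest median (0.55) and the germline genes, with 3 entries, the lowest (-0.51).

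Genes whose expression is known to depend on DNA methylation were also listed. Of 18 germline genes usually kept silent by promoter methylation, 7 were listed and 3 were above 0.5 FPKM, and none was called. Those 3 were not silent in this line in either condition. MAGEA3 (46.9 to 32.8 FPKM, -0.51) and MAGEA6 (42.8 to 29.6 FPKM, -0.53) are nearly identical in sequence, so reads may have been divided between them, and MAGEA4 was at 7.29 and 6.95 FPKM (-0.07). SYCP3, STK31, SOHLH2 and MAGEB2 stayed below the limit. Of 18 imprinted genes, whose alleles carry different methylation, 12 were listed and 11 were above the limit, with 5 called higher and 1 lower. Their median was 0.55, or 0.75 with equal sums, 0.87 at a mean limit of 1 FPKM and 0.26 with 1 FPKM added. PEG10 was at 21.8 FPKM in normoxia and 51.2 in hypoxia (1.23), PLAGL1 at 1.52 and 3.52 (1.16), IGF2R at 4.55 and 9.90 (1.10), H19 at 19.6 and 38.5 (0.97) and NNAT at 2.304 and 4.02 (0.78). PHLDA2 was called lower, at 1.05 and 0.550 FPKM (-0.82, or -0.40 and not past 1.5-fold with 1 FPKM added), MEST was at -0.33 and GNAS at -0.01. IGF2 lay below the limit. Of the called genes, PLAGL1, NNAT and PHLDA2 had a mean below 5 FPKM, where 16.3% of genes were called higher and 9.1% lower. PEG10, IGF2R and H19 lay at 5 FPKM or more, where 6.26% were called higher and 12.5% lower. Alleles and methylation were not measured, and the list is read only as counts beside the background above.

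The labels of the conditions and of the line were set beside fixed lists. These lists were chosen with earlier results of these data known, so they give no independent check. All 7 analysed genes of the hypoxia check (CA9, VEGFA, ADM, SLC2A1, PDK1, BNIP3 and EGLN3) were called higher, with log2 changes from 1.02 to 4.77. Of the 9 squamous markers, 7 were analysed and all 7 were above the limit, led by KRT5 (398 and 442 FPKM), CDH1 and KRT17, with TP63 at 42.8 and 44.6. Of 12 markers of fibroblasts, immune cells and endothelium, 3 were listed. COL3A1 was at 0.107 FPKM or less, CD68 at 2.36 and 2.86, and CDH5 at 4.78 and 2.83. All values are those of 1 cell line.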

How the data were processed

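The authors prepared stranded poly(A)+ libraries, aligned reads with STAR 2.3.0.1 to hg19 and ran Cufflinks 2.1.1 with RefSeq annotation, per the paper's methods and the submitters' processing notes. The deposited FPKM values are 1 per transcript and condition over 4 replicates. The table also holds the authors' fold changes, test statistics, p-values and q-values, which were not used. The paper reports an average read depth, but the depth of single samples cannot be taken from these values, and no counting interval was computed.

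RefSeq identifiers were paired with symbols through the GRCh38.p14 gene table (24293 of 24812 transcripts, 97.9%), from which no coordinates were taken. FPKM was summed per gene. Changes used a pseudocount of 0.1 FPKM, a lower limit of 0.5 on the FPKM averaged over both conditions, and a call at 1.5-fold. No test was run, since the pooled values hold no replicate spread. A log2(FPKM + 0.1) change understates that of low genes. Deposited locus starts count from 0 and were raised by 1. Start-site windows were matched exactly to GRCh37. The steps were run on exact known fold changes put into the normoxia FPKM of genes at 5 FPKM or more, without noise. That checks the arithmetic only and gives no error rate for low genes or for changes near 1.5-fold. Python 3.11.15, numpy 2.4.6, pandas 2.3.3 and matplotlib 3.10.9 were used.

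All members and their transcripts are named. From each list, the genes named are those with the largest changes, at most 3 higher and 3 lower, and others with known roles, which were added after their values were seen. Some list genes are not reported here by name. Likeness of pattern to other genes was not computed from 2 values per gene. The members and lists were chosen with earlier results of these data known. Alternatives to the pseudocount, FPKM limit, scaling, fold and gene summary were tried.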

Additional observations from a re-analysis of the deposited data

How the results depend on the processing

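Every member kept its direction under all alternatives tried, apart from TET1, which a mean limit of 1 FPKM removed, and DNMT1 stayed at or above 0.00. Other pseudocounts, FPKM limits or fold limits cannot reverse a direction. Only the scalings and, for members with more than 1 listed transcript, the highest transcript per gene could have done so. Of 1106 alternative values for single genes, transcripts and lists, 1013 kept their status as called or not, 40 became called and 53 were no longer called. Each was judged at the fold limit of its own setting, so under the other fold limits a status could differ while the value did not. The other FPKM limits leave the value of a single gene or transcript unchanged, so its status could not move under them. Counts moved more. With 1 FPKM added, 0 member genes and 0 member transcripts were called higher (2 and 3 as reported) and 1 transcript lower. A mean limit of 1 FPKM left 1 gene and 1 transcript called higher. With equal FPKM sums, 0 member genes, 1 transcript and 3 genes of the pathway lists without S phase genes (7 as reported) were called lower. Quantile normalization left 0 genes and 1 transcript lower. At the less strict fold limit tried, 2 member genes were lower, 5 transcripts higher, and 13 and 15 pathway genes higher and lower. At 2-fold, 0 member genes or transcripts were called in either direction, with 4 pathway genes higher (8 as reported) and 0 lower. The highest transcript per gene gave 2 member genes lower, DNMT3B joining TDG. For DNMT3B it was NM_175850, at a mean of 1.440 FPKM beside 1.433 for NM_001207056, whose log2 change was -0.23. As deposited, 9.95% of all genes above the limit were called higher and 11.2% lower. These shares were 18.2% and 4.96% with equal sums, and 12.4% and 8.76% after median centring. They were 5.94% and 8.52% with 1 FPKM added, and 8.89% and 11.8% at a mean limit of 1 FPKM. Quantile normalization gave 11.6% and 8.43%, and the highest transcript per gene 10.1% and 11.8%. At the less strict fold limit they were 20.6% and 27.8%, and at 2-fold 3.2% and 2.62%. Shares of all transcripts were not computed under the alternatives. No paired analysis was possible because the table holds 1 pooled value per condition, and leaving out single replicates was not run for the same reason. No read depth goes with the FPKM values, so the low values of TET1 and DNMT3A have no counting interval.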
